A study of Ovis aries with 13 samples.

Results

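WT1 and NR2F2 are transcription factors of heart development, and both had lower signals in the left ventricle of newborn lambs than in that of fetal sheep close to birth. The search took every non-control probe whose gene name, or gene by RefSeq identifiers, was WT1 or NR2F2. It found 2 of the 15008 probes of the array, A_70_P026736 and A_70_P026737, and both were WT1. No probe carried NR2F2 as its gene name or through an identifier, so 1 of the 2 genes was found by that search, among 1016 named genes on the array. A single probe, A_70_P056676, is described in the files as similar to the bovine NR2F2 protein, and it is given here as NR2F2 by description only. One further probe, A_70_P056096, carries no gene name but lists the same transcript cluster as both WT1 probes. It was added after the files had been read, and it is kept apart from WT1 below.

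The samples were left ventricle tissue of sheep (Ovis aries), with 6 fetuses at gestational day 142 and 7 newborns at postnatal day 1. By sex, 2 fetuses were female and 4 male, while 4 newborns were female and 3 male. The labels name no genetic change or drug treatment for these animals, and each of the 13 arrays carried RNA of 1 animal. The series asks how the heart changes at birth. In such tissue, fewer cells of a type and less RNA per cell cannot be told apart.

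WT1 encodes a zinc finger transcription factor that can activate or repress its targets. In the embryo it marks the epicardium, the outer cell layer of the heart, where it takes part in the change of epicardial cells into migrating mesenchymal cells, and it is also present in endothelial cells of growing coronary vessels. NR2F2, also called COUP-TFII, is an orphan nuclear receptor. It holds endothelial cells in a venous state and keeps atrial muscle from taking on ventricular features, and it is little expressed in ventricular muscle cells.

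The probes are shown because the reading of WT1 rests on a pair that is almost the same molecule. Each probe is 60 bases long, and the first 30 bases are printed from 5′ to 3′ as the files give them. Capitals mark the bases that the printed stretches of both WT1 probes share.
A_70_P026736: ATCTTTCTTCATCCAGCGTCTGAGACAAGa
A_70_P026737: gATCTTTCTTCATCCAGCGTCTGAGACAAG
A_70_P056096: ataaatgttagacgcatcactggttttggg
A_70_P056676: acctctagctggtcttttttgtacatttct
The WT1 probes lie on the same strand, are shifted by 1 base and share 59 of their 60 bases, so they read the same stretch of RNA and are not independent measurements of the gene. Their GC content was 45%, against 36.7% for A_70_P056096 and for the NR2F2 probe. The array's own annotation gives the position of all 4 probes as unmapped, so whether they lie in coding sequence or in a UTR was not determined here.

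All 4 probes were well above background, by the mark of the scanner software, on all 13 arrays, and none of their spots was saturated or marked as an outlier. The processed signal, a background-subtracted brightness in scanner units, of WT1 probe A_70_P026737 was 6.51 to 13.96 times the lowest signal well above background on fetal arrays and 3.83 to 8.85 times on newborn arrays. For WT1 probe A_70_P026736 the multiples were 5.37 to 10.65 in fetuses and 3.51 to 7.79 in newborns. The NR2F2 probe lay closest to background, at 2.81 to 7.43 times that signal in fetuses and 2.63 to 4.38 times in newborns. Among all probes of an array, A_70_P026737 stood at a percentile of 52.4 to 67.6, and the NR2F2 probe at one of 41.3 to 53.1. All 4 probes thus gave a signal above background in every animal, with NR2F2 read through a probe named by description only. These percentiles count all probes, of which 62.7 to 71.4% per array were well above background. Among the probes above background, the NR2F2 probe was therefore a dim one.

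**Figure D1:**
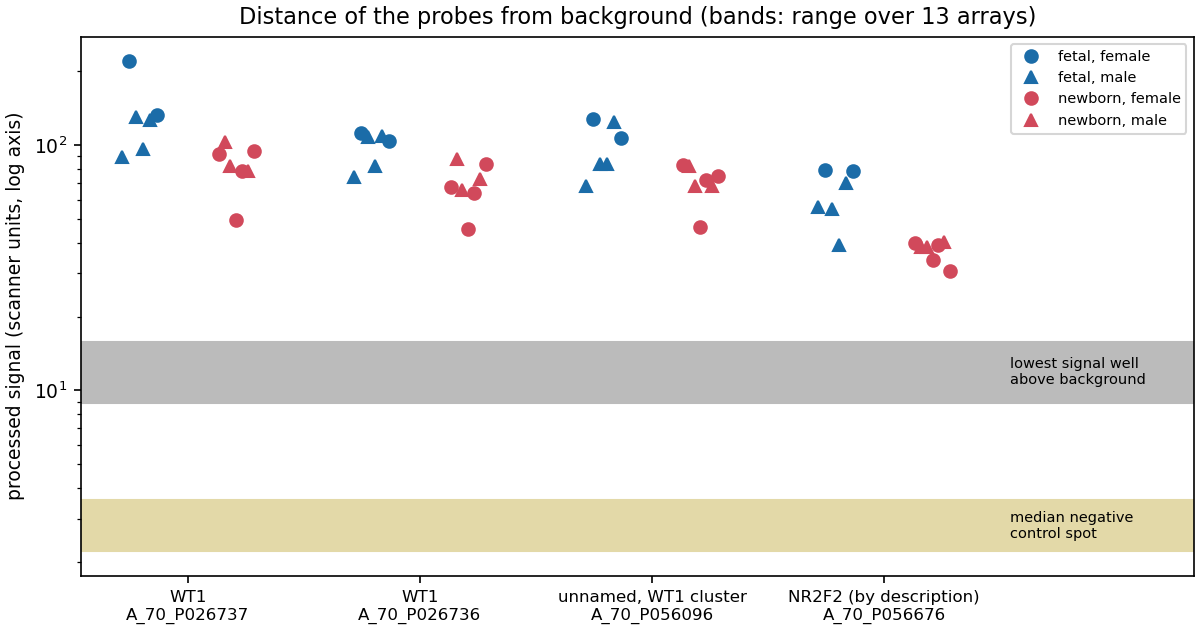
Processed signal of the 4 probes on each of the 13 arrays, in scanner units on a log axis, with the range over arrays of the lowest signal well above background (grey band) and of the median negative control spot (yellow band). Every point lies above both bands, and the NR2F2 probe on newborn arrays lies nearest to them.

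Levels are given below as the log2 of the processed signal over the 75th percentile of the same array, so that a level of 0 equals that percentile. Differences were tested with limma across 10255 probes that were well above background on at least 6 arrays, with Benjamini-Hochberg adjustment over all of them and a threshold of 0.05. By that test 23.1% of the probes differed between newborn and fetal ventricle, and 11.1% were lower in newborns. A fall of a single probe is therefore a common event in these data. The median log2 change over all tested probes was 0.03.

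WT1 fell at birth by 1 of its 2 probes. On A_70_P026737 the lowest, median and highest fetal log2 levels were -1.63, -1.29 and -0.74, and the newborn levels were -2.14, -1.68 and -1.42. The groups overlapped, with 5 of 7 newborns below every fetus, and the newborns numbered 1 and 2 inside the fetal range. The mean log2 level was -1.26 ± 0.29 (SD, n = 6) in fetuses and -1.75 ± 0.28 (SD, n = 7) in newborns. The log2 change was -0.50 (SE 0.15, 95% interval -0.82 to -0.17), which is a 1.41-fold lower level, with a limma adjusted p of 0.0297. An exact two-sided permutation test of this probe over the 1716 ways to assign the arrays gave p = 0.00699. It treated all arrays as interchangeable, without regard to slide or animal number, as did the permutation tests of the other probes. Of the tested probes, 9.58% had a larger fall. Without fetus 2, the highest array of the study for this probe, the log2 change was -0.39 with a limma adjusted p of 0.0628.

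The other WT1 probe, A_70_P026736, did not pass. Its fetal log2 levels ran from -1.91 through a median of -1.60 to -1.48, and its newborn levels from -2.41 through -1.92 to -1.66. Of the 7 newborns, 4 lay below every fetus. Its log2 change was -0.36 (SE 0.13, 95% interval -0.63 to -0.08), or 1.28-fold, with a limma adjusted p of 0.0564 and an exact permutation p of 0.0157. The mean of both WT1 probes changed by -0.43 (SE 0.13) on the log2 scale, with a limma adjusted p of 0.0297. The call for WT1 thus depended on which of 2 nearly identical probes was read. Both intervals, which are not adjusted for the number of probes, lay below 0. Of the 10255 tested probes, 3876 had an unadjusted limma p under 0.05 in either direction, so such an interval is common here.

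The unnamed probe of the WT1 cluster, A_70_P056096, had fetal log2 levels of -2.03 to -1.30 and newborn levels of -2.36 to -1.63. Only 2 of 7 newborns were below every fetus. Its log2 change was -0.32 (SE 0.14), with a limma adjusted p of 0.125.

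NR2F2, by the probe its description names, fell in newborns. The log2 level of A_70_P056676 was -2.31, -2.22, -2.53, -2.62, -2.11 and -2.05 in fetuses 1 to 6. In newborns 1 to 7 it was -2.69, -2.84, -3.18, -2.69, -2.81, -2.64 and -3.29. All 7 newborns were below all 6 fetuses, but narrowly so, since the lowest fetus stood at -2.62 and the highest newborn at -2.64. Such a complete separation with newborns lower was seen for 3.51% of the tested probes. The mean log2 level was -2.31 ± 0.23 (SD, n = 6) in fetuses and -2.88 ± 0.26 (SD, n = 7) in newborns. The log2 change was -0.57 (SE 0.14, 95% interval -0.86 to -0.28), which is a 1.48-fold lower level, with a limma adjusted p of 0.00958. The exact two-sided permutation p was 0.000583, and 7.27% of tested probes had a larger fall.

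**Figure D2:**
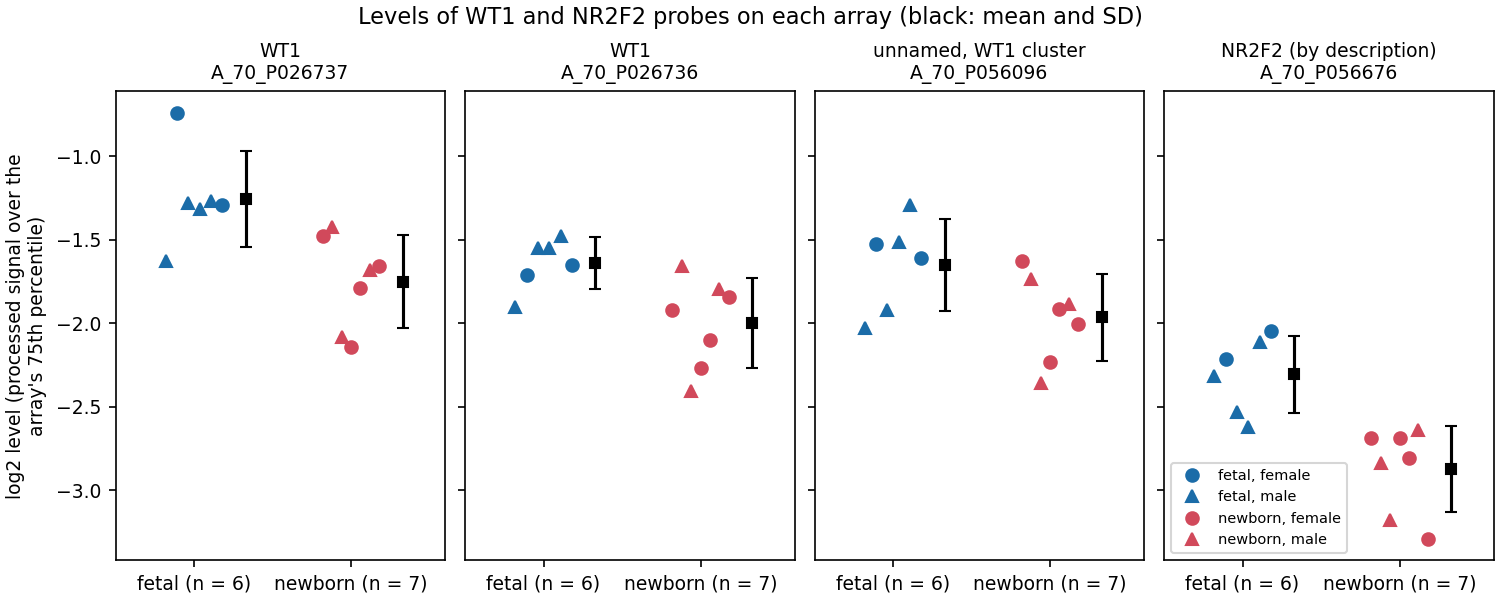
Log2 level of each probe on each array for 6 fetuses and 7 newborns, with the group mean and SD in black and the sex of the animal by symbol. The groups overlap for both WT1 probes and for the unnamed probe of the cluster, and do not overlap for NR2F2.

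The arrays lay on 2 slides, each with both ages. Within slide 1, with 4 fetuses and 3 newborns, the log2 change was -0.42 for WT1 (A_70_P026737) and -0.48 for NR2F2. Within slide 2, with 2 fetuses and 4 newborns, it was -0.54 for WT1 and -0.77 for NR2F2. The direction was the same on both slides, and neither gene passed within a slide, where the limma adjusted p was 0.338 and 0.190 for WT1 and 0.142 and 0.158 for NR2F2. With the slide as a block, WT1 changed by -0.47 with a limma adjusted p of 0.0503, just above the threshold, and NR2F2 by -0.61 with 0.00915. On slide 2 the 2 fetal NR2F2 levels, -2.11 and -2.05, were above those of all 4 fetuses on slide 1.

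The method of background correction changed the size of the falls. With normexp correction on the median background of each array, the log2 change was -0.29 for WT1 (limma adjusted p = 0.0413) and -0.20 for NR2F2 (limma adjusted p = 0.0950). That method adds an offset of 50 units to signals. The NR2F2 probe read 30.6 to 79.1 units and the WT1 probe 49.6 to 220 units. The part of the offset in the smaller log2 changes was not tested. In the authors' deposited series matrix values the WT1 probe changed by -0.23 (limma adjusted p = 0.0593), and that table gave no value for the NR2F2 probe.

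**Figure D3:**
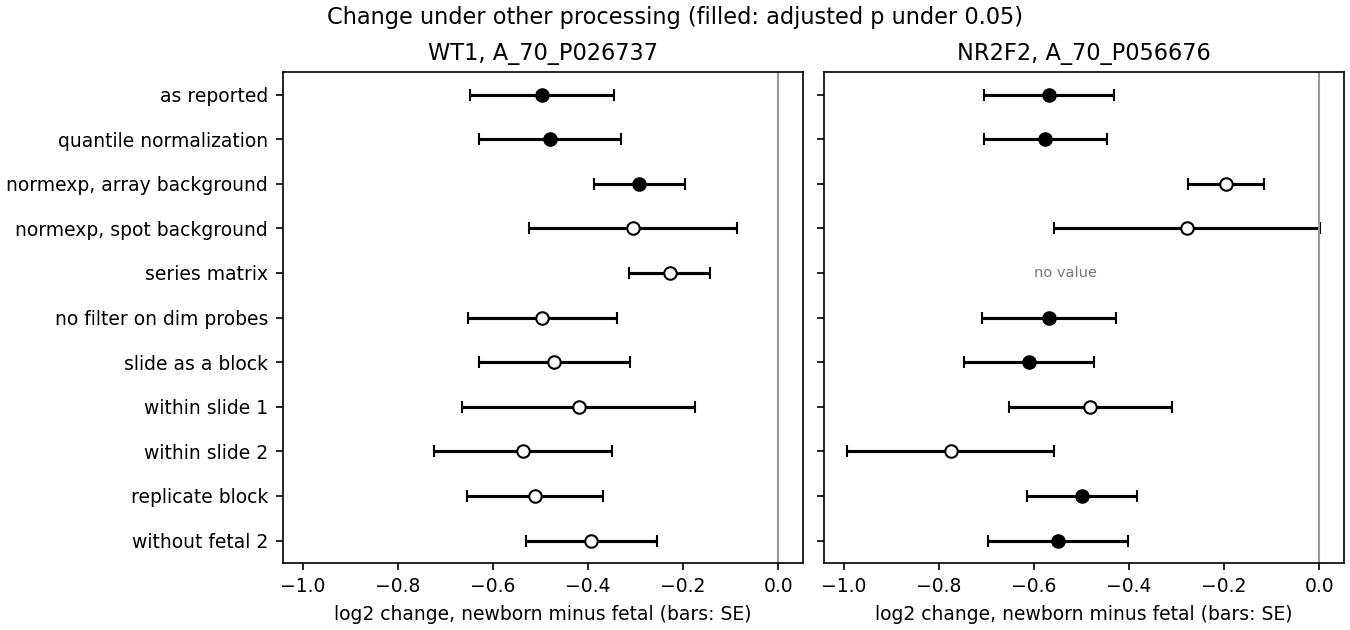
Log2 change from fetal to newborn ventricle, with its SE, for WT1 probe A_70_P026737 and NR2F2 probe A_70_P056676 under 11 ways to process the arrays. Every point lies below 0, and filled points, those with an adjusted p under 0.05, are fewer for WT1 than for NR2F2.

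The WT1 probes tracked each other from animal to animal, with 1 exception. The log2 level of A_70_P026737 exceeded that of A_70_P026736 by 0.21 to 0.36 on 5 fetal arrays and by 0.11 to 0.44 on the newborn arrays. In fetus 2 the gap was 0.98, or 1.97-fold. The authors' deposited series matrix also held a wider gap there, 0.50 on the log2 scale. As a description, the correlation between the probes was 0.91 over the 7 newborns and 0.23 over the 6 fetuses. The array holds 137 tested pairs of probes shifted by 1 base. In 16 of these pairs (11.7%) a single probe passed the age test, as for WT1, in 23 both passed, and 27 pairs (19.7%) had a larger gap between their log2 changes than the 0.14 of WT1. In 24 pairs (17.5%), WT1 included, at least 1 array lay as far from the pair's median gap as fetus 2 did for WT1.

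**Figure D4:**
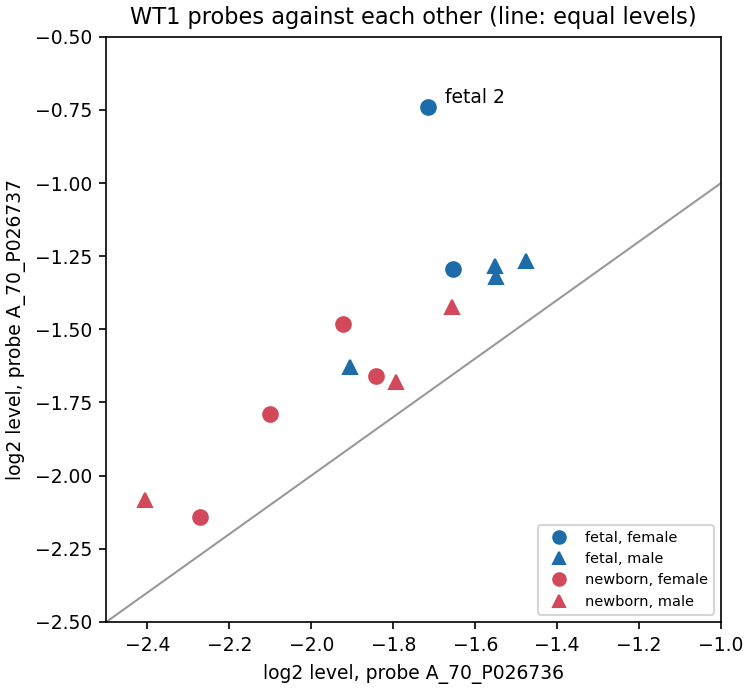
Log2 level of one WT1 probe against the other on each of the 13 arrays, with a grey line of equal levels. All arrays lie above the line, and fetus 2 lies farthest above it, at a gap of 0.98.

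A relation between WT1 and NR2F2 from animal to animal was not detected within either group. Within the 6 fetuses, Pearson's r between A_70_P026737 and A_70_P056676 was 0.19 (exact permutation p = 0.788) and Spearman's rho 0.37 (exact permutation p = 0.497). Within the 7 newborns r was 0.15 (exact permutation p = 0.767) and rho -0.21 (exact permutation p = 0.662). After adjustment over these 2 relations, both Pearson p values were 0.788 and both Spearman p values 0.662. Without the 2 animals farthest from the median of WT1, r was 0.57 over 4 fetuses and 0.14 over 5 newborns. The animals with the lowest WT1 among newborns, 3 and 4, had NR2F2 levels of -3.18 and -2.69.

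No difference by sex was detected for either gene. With age in the model, the log2 difference of males minus females was -0.13 (SE 0.16, 95% interval -0.47 to 0.20) for WT1 probe A_70_P026737 and -0.12 (SE 0.14, 95% interval -0.43 to 0.18) for NR2F2, and the limma adjusted p was 0.999 for both. The change with age in males minus that in females was 0.40 (SE 0.31) for WT1 and 0.24 (SE 0.29) for NR2F2, with limma adjusted p of 0.986 and 0.990. The fetal females numbered 2, and 1 of them was fetus 2. Over all tested probes, sex gave 1 call (0.00975%), and the difference of the age change between sexes gave 0 calls by limma, with 507 at an unadjusted p under 0.05.

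Of 35 genes reported elsewhere as WT1 targets, 12 were tested, of which 2 rose, 3 fell and 7 did not pass. Over all 648 tested named genes, each by its brightest probe, 23.0% differed, with 13.4% higher and 9.57% lower in newborns. INHA, the inhibin alpha subunit, rose by 2.97 on the log2 scale (SE 0.28, limma adjusted p = 3.41e-05), and BCL2, an inhibitor of apoptosis, rose by 0.44 (SE 0.14, limma adjusted p = 0.0416) by 1 of its 2 tested probes. With normexp on array backgrounds BCL2 did not pass (0.32, limma adjusted p = 0.0550), which left 1 riser. IGF2, a fetal growth factor, fell by 0.98, VEGFA, the main angiogenic growth factor, fell by 0.67, and PECAM1, an endothelial adhesion molecule, fell by 0.51, with limma adjusted p of 0.000243, 0.0110 and 0.00869. The 3 with the next smallest p were TGFB1 (-0.33), SNAI2 (-0.40) and SNAI1 (-0.26), a cytokine and a pair of transcription factors of epithelial to mesenchymal change, with limma adjusted p of 0.0787, 0.176 and 0.193. The median log2 change of the 12 genes was -0.26, against 0.09 for all tested named genes. The members thus moved in both directions.

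Few other genes of NR2F2's own class could be read. As a background for the counts below, 23% of the 648 tested named genes differed, and 9.57% were lower in newborns. Of 4 tested nuclear receptors, PPARG, the receptor that directs fat cell formation, fell by 0.54 on the log2 scale (SE 0.17, limma adjusted p = 0.0386), and with the slide as a block it did not pass (-0.54, limma adjusted p = 0.0541). PPARA, a regulator of fatty acid oxidation, NR3C1, the glucocorticoid receptor, and THRB, a thyroid hormone receptor, had log2 changes of -0.23, -0.16 and -0.04 with limma adjusted p of 0.119, 0.488 and 0.848. Among venous and arterial identity genes, 3 were tested. KDR, the main VEGF receptor of endothelium, fell by 0.46 (SE 0.13, limma adjusted p = 0.0233), and 3 of its 4 tested probes passed. The Notch ligands JAG1 and DLL4 had log2 changes of -0.34 and 0.14, with limma adjusted p of 0.186 and 0.336. Of 11 atrial identity genes none was on the array by name, so the atrial program that NR2F2 is known for was not read here.

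Of 28 cardiac developmental transcription factors, 2 were on the array by name. HAND1, a factor of left ventricle formation and also the single ventricular identity gene tested, had a log2 change of -0.12 (SE 0.16, limma adjusted p = 0.621). ISL1, a factor of cardiac progenitors, had 2 probes, of which one was well above background on 1 fetal array and the other on none.

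**Figure D5:**
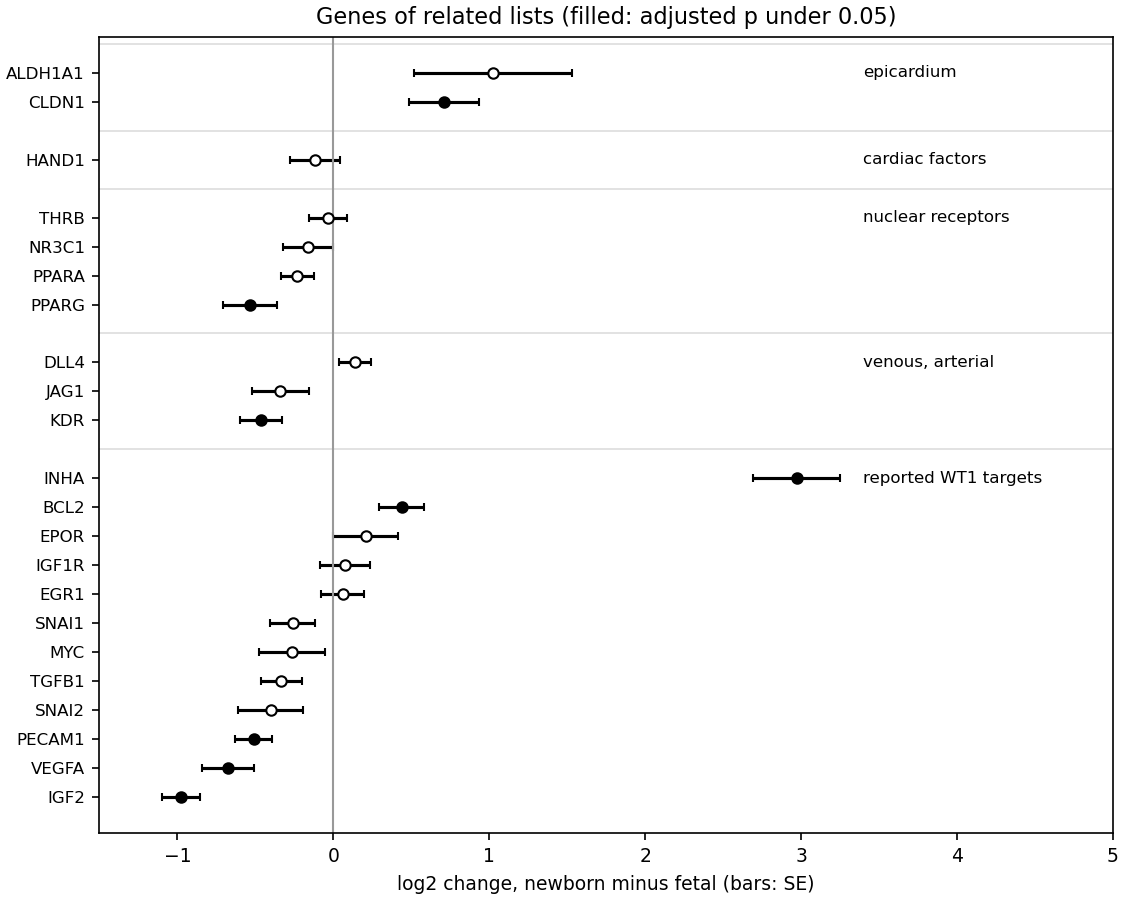
Log2 change from fetal to newborn ventricle, with its SE, for the tested genes of the lists related to WT1 and NR2F2, with filled points for an adjusted p under 0.05. Reported WT1 targets lie on both sides of 0, from IGF2 at -0.98 to INHA at 2.97.

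The cell types in which WT1 and NR2F2 are known to be expressed were covered unevenly. Of the epicardial list, CLDN1, a tight junction protein, rose by 0.71 on the log2 scale (SE 0.22, limma adjusted p = 0.0354; 0.0880 with normexp on array backgrounds), and ALDH1A1, a retinoic acid synthesising enzyme, had a change of 1.02 (SE 0.51, limma adjusted p = 0.154). KRT19, a keratin of mesothelium, was well above background on 0 fetal and 2 newborn arrays, and no other gene of the mesothelial list was on the array by name. Of the endothelial list 4 genes were tested, of which KDR, PECAM1 and FLT1 fell, FLT1 by 0.82 (SE 0.13, limma adjusted p = 0.001), while TIE1 changed by -0.09 (limma adjusted p = 0.671). The mean log2 level of these 4 genes ran from -0.63 to -0.40 in fetuses and from -1.19 to -0.64 in newborns. For comparison, 13.4% of all tested named genes were higher and 9.57% were lower in newborns. The part of the endothelial genes in the falls of WT1 probe A_70_P026737 and of NR2F2 was not tested.

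Genes of other cell types also differed between the groups, against a background of 13.4% of tested named genes higher and 9.57% lower in newborns. CD14, FCER1G and FCGR1A, of 4 tested macrophage genes, rose, by 0.66, 0.76 and 2.07 on the log2 scale, and LYZ had a change of 0.68 (limma adjusted p = 0.277). FCGR1A was well above background on 2 of 6 fetal and 7 of 7 newborn arrays, so it was tested only through the group where it was high. CD3D and CD3E, of T lymphocytes, fell by 1.63 and 2.07, the erythroid gene AHSP fell by 1.73, and HBB fell by 1.53. CD3D and AHSP were each well above background on 5 of 6 fetal and 2 of 7 newborn arrays, so their newborn levels were mostly not measured above background. With normexp on array backgrounds neither passed (limma adjusted p of 0.0507 for CD3D and 0.251 for AHSP). Under that correction CD14, FCER1G, FCGR1A and CD3E passed with smaller log2 changes of 0.28, 0.64, 0.61 and -0.77. The limma adjusted p of CD14 was then 0.0497. HBB changed by -1.58 under it. CNN1, a smooth muscle gene, rose by 1.83. Of 5 tested fibroblast genes COL3A1 fell, by 0.37, by 1 of its 3 tested probes, and it did not pass with quantile normalization or with the slide as a block (limma adjusted p of 0.0694 and 0.0710). The fibroblast genes COL1A1, COL1A2, DCN and VIM changed by -0.03, -0.08, -0.19 and 0.16, with limma adjusted p of 0.909, 0.766, 0.466 and 0.251. Of 3 adipocyte genes LPL fell, by 0.46, while LEP and PLIN1 changed by 0.12 and 0.11 (limma adjusted p of 0.544 and 0.550). MB, the myoglobin of heart muscle and the single cardiomyocyte gene tested, had a log2 change of -0.34 (SE 0.16, limma adjusted p = 0.139). The part of these cell types in the WT1 and NR2F2 results was not tested.

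The genes whose levels were most like those of WT1 and NR2F2 were taken as the 5 highest correlations among 630 named genes, and they are a description over 13 arrays that share slides and scaling. By deviations from the group means, which leave out the age difference, WT1 probe A_70_P026737 was nearest to PTGDS, a prostaglandin D synthase (r 0.75), CYP2J, a cytochrome P450 (0.73), BMP4, a bone morphogenetic protein (0.72), PDGFB, a platelet-derived growth factor chain (0.71), and HIF3A, a hypoxia-inducible factor subunit (0.67). By the levels themselves, PTGDS (0.87), HIF3A (0.83), BMP4 (0.79), LOC100191035 (0.79) and ERBB2, a receptor tyrosine kinase (0.78), stood highest. Of the 5 nearest by level, 4 passed the age test, since PTGDS fell by 0.79, HIF3A fell by 0.75, ERBB2 fell by 0.72 and LOC100191035 fell by 0.45 on the log2 scale, and BMP4 did not (-0.31, limma adjusted p = 0.168).

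For NR2F2 the deviations were nearest to those of IRF2, an interferon regulatory factor (r 0.80), SPA17, a sperm surface protein (0.79), TF, transferrin (0.78), CREM, a cAMP-responsive factor (0.77), and MB (0.76). None of these 5 passed the age test. By levels, 4 of the 5 nearest were PPARG (0.84), CDKN1B, a cell cycle inhibitor (0.84), IGF-IIR, the mannose 6-phosphate receptor that clears IGF2 (0.81), and PRNP, the prion protein (0.81). Of these 4, PPARG fell by 0.54, IGF-IIR fell by 0.82 and PRNP fell by 0.73 on the log2 scale. CDKN1B did not pass the age test (-0.52, limma adjusted p = 0.0751). No gene was among the 5 nearest of both WT1 and NR2F2 by either measure.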

How the data were processed

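RNA of left ventricle from 13 sheep was hybridised to Agilent arrays. The deposited scanner files give the intensity of each spot in 1 green channel, as Feature Extraction wrote it. Background was subtracted and a detrending applied inside each array to give the processed signal, per the file headers. The deposited marks for well above background, saturated and outlier spots come from the same software. The label field names Cy5 and the labels' protocols Cy3. By its values, the authors' series matrix appears to hold log2 signals. How they were normalized is not stated in the labels or files, and they served as an alternative. The design text speaks of 7 fetuses and further heart regions, which were not analysed here.

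The value used was log2 of the processed signal minus log2 of the array's 75th percentile. Control and outlier spots were dropped, and repeated spots of a probe averaged. The comparison used limma 3.58.1 (lmFit, eBayes) under R 4.3.3, and the script was tested on simulated data. A gene was read by its brightest probe, and WT1 by A_70_P026737. The 75th percentile ran from 219 to 367 units, 62.7 to 71.4% of probes were well above background, and arrays of a group correlated at 0.956 to 0.990. The number of arrays limits the precision. Groups are separate animals by the labels, though 9 animals share 4 numbers under different letters, with no meaning given.

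Named genes were every WT1 and NR2F2 probe, the 5 most alike by each measure, and from each list the tested genes that passed, up to 3 more by p and all tested cell type markers. One gene that this rule names is not reported here. Members and lists were chosen with earlier results of these data known, and the pairs of shifted probes were compared after the WT1 probes had been seen. Alternatives were other background corrections, scalings, filters, blocks and probes, the series matrix, and leaving out each array.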

Additional observations from a re-analysis of the deposited data

Results flagged for a closer look

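The log2 difference between the 2 WT1 probes in fetus 2 was 0.98, far from the other 5 fetal arrays, of which the next was 0.36. The gap between these values took up 0.804 of the range of the fetal group. On that array A_70_P026737 read 220 units and A_70_P026736 112 units, and neither spot carried an outlier mark. The unnamed probe of the same cluster had a log2 level of -1.53 there, inside the range of the other fetuses. Of 10 groups of values examined in this way it was the only one to stand apart, and chance alone picks out about 1 in 20 such groups. The cause was not tested.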

How the results depend on the processing

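The direction of both falls was kept under every alternative run. NR2F2 kept its call in 9 of 13 other settings and in all 13 fits without 1 array (log2 change -0.63 to -0.50). It did not pass with normexp on the background of each spot (-0.28, adjusted p = 0.956), with normexp on array backgrounds (-0.20), or within slide 1 (-0.48) or slide 2 (-0.77). WT1 kept its call in 8 of 16 settings and 7 of 13 fits without 1 array (-0.57 to -0.39). It was lost with normexp on each spot (-0.30, adjusted p = 0.789), the series matrix (-0.23), no filter on dim probes (-0.50, adjusted p = 0.0539), the slide as a block (-0.47), within slide 1 (-0.42) and slide 2 (-0.54), with the replicate number as a block (-0.51, adjusted p = 0.0507) and by the other probe (-0.36). It was also lost without fetus 2, 3 or 5 or newborn 3, 4 or 5, where the adjusted p was 0.0628, 0.0519, 0.0540, 0.0514, 0.0604 and 0.0531. A_70_P026736 passed in 1 of 14 settings and in 3 of 13 fits without 1 array. Over all probes, 2366 calls became 50 with normexp on each spot, 356 within slide 1, 23 within slide 2, 1326 with the replicate block, and 1727 to 3116 without 1 array. Fetal and newborn samples with the same replicate number did not deviate together (r -0.07 to 0.05), so replicate numbers were not read as pairs. Pairs of arrays with the same animal number had r of -0.17 to 0.19, and their consensus correlation was 0.178. With the animal number as a random block, the 2366 calls became 1717. In that fit WT1 changed by -0.51 (limma adjusted p = 0.0470) and NR2F2 by -0.57 (limma adjusted p = 0.0205). Whether animals that share a number are independent was not tested. Passing nuclear receptors went from 1 (PPARG) to 0 with the slide as a block, and passing epicardial genes from 1 (CLDN1) to 0 with normexp on array backgrounds. The sex difference of WT1 changed sign without fetus 2 (0.0018), and its fits without 1 array ran from -0.24 to 0.0018. For these results the cause was not tested. The fits within a slide also held fewer arrays, and the part of that number in the lost calls was not tested. Limits are the dim NR2F2 probe, named by description alone, and WT1 probes that share nearly all their bases.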
